A study of Mus musculus with 4 samples.

Results

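The TGF-beta ligands, their receptors and the latent binding proteins that tether the ligands to the matrix were examined in soleus muscle of *mdx* mice infused with cardiosphere-derived cells of mouse heart (mCDCs) or with vehicle. The set was 10 of the 24054 gene symbols in the count table, taken as the rows whose symbol equals *Tgfb1*, *Tgfb2*, *Tgfb3*, *Tgfbr1*, *Tgfbr2*, *Tgfbr3*, *Ltbp1*, *Ltbp2*, *Ltbp3* or *Ltbp4*, whatever their values. All 10 were in the table and all 10 passed the filter on low counts. Bulk RNA-seq was performed on whole soleus, with 2 mCDC and 2 vehicle libraries (n = 2 per group). All mice were females of the *mdx* strain on the C57BL/10ScSn background, which carry a dystrophin mutation, so both groups were dystrophic and no wild-type group was measured. Infusions into the femoral vein began at 8 weeks of age and were given monthly to the 12-month endpoint. The mCDC mice received passage 5 cells, which had all been grown from 1 heart of a healthy female of the parent strain, and the vehicle mice received the culture medium IMDM alone. The sources used here give the number of libraries and do not state whether those of a group differ in litter or day, so the p-values measure only the spread between these libraries, and an exact permutation test of 2 against 2 could not go below 0.333.

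TGF-beta is the growth factor most closely tied to scar formation in dystrophic muscle. Each ligand is made with a propeptide that stays wrapped around it, and this latent pair is bound by a latent TGF-beta binding protein (LTBP) and stored on the matrix until integrins or proteases release the ligand. The freed ligand binds TGFBR2, which recruits and phosphorylates TGFBR1, and the pair then activates SMAD2 and SMAD3. TGFBR3, or betaglycan, has no kinase and presents ligand, TGF-beta 2 above all, to the other two receptors, while its shed ectodomain can hold ligand away from them. *Ltbp4* is a known genetic modifier of muscular dystrophy in mice.

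*Tgfbr3* and *Ltbp4* were lower in mCDC muscle, by 1.60-fold and 1.57-fold. These were the 2 of 10 genes that passed the call, a fold change above 1.5 with an unadjusted p below 0.05. The study used the same limits and does not state whether its p was adjusted. None of the 10 was called higher. Over all 13652 genes tested, 2.74% were called lower and 1.26% higher. Neither call held after Benjamini-Hochberg adjustment over all genes in edgeR's quasi-likelihood test, where the smallest adjusted p among the 10 genes was 0.567. No gene of the table had an adjusted p below 0.05 in that test, whereas 947 genes (6.94%) had an unadjusted p below 0.05. DESeq2 placed 48 genes and edgeR's exact test 58 genes below an adjusted p of 0.05, none of them a ligand, receptor or LTBP. Both libraries of the mCDC group lay below both vehicle libraries for 6 of the 10 genes and above them for 1, *Ltbp3*, against 19.5% and 19.2% of all genes tested. With a trend on transcript length and GC content removed, none of the 10 genes was called, and 208 genes were higher and 281 lower over the table in place of 172 and 374. The median log2 fold change was -0.15 over the 10 genes and -0.0094 over all genes.

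The *Ltbp3* and *Ltbp4* promoters are shown because these paralogs were the most abundant LTBPs and lay on opposite sides of 0. The windows are the 250 bases before annotated RefSeq transcript starts (GRCm38.p6), written 5′ to 3′ on the strand of the gene. Those of *Ltbp4* lie at 2 separate places, whose transcripts the gene-level counts cannot separate. Outer and inner name these windows only, since the annotated span of *Ltbp4* runs past the outer window to chr7:27339720. No window at that end of the gene was among those found. Capitals mark CAGAC, the SMAD-binding core, and GGGCGG, the GC box bound by SP1, each searched on both strands, so that a run in capitals may be the reverse complement of its motif.
Ltbp3, chr19:5740650-5740899, plus strand: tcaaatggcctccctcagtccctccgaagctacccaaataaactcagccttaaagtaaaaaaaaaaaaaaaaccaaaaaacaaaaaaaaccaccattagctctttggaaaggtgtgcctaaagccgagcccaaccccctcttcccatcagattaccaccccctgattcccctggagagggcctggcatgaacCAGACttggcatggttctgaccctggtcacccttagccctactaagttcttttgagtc
Ltbp4, outer start, chr7:27337613-27337862, minus strand: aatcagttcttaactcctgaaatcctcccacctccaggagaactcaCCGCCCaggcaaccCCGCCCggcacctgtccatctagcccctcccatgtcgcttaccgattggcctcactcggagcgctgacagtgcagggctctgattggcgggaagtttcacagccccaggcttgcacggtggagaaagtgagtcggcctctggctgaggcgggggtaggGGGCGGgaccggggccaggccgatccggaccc
Ltbp4, inner start, chr7:27333664-27333913, minus strand: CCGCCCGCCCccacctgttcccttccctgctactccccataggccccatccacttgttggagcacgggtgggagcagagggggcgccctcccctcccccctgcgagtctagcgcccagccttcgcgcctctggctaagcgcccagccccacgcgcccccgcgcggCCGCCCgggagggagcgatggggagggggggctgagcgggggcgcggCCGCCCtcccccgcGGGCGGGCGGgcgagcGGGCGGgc
The *Ltbp3* window held 1 match to CAGAC and none to the GC box at a GC content of 47.2%. The outer *Ltbp4* window held 3 GC boxes and no CAGAC at 64.4% GC, and the inner one 7 GC boxes, some of them overlapping, and no CAGAC at 79.2% GC. Another *Ltbp4* window, chr7:27333649-27333898, overlaps most of the inner one and is not shown. It held 5 GC boxes and no CAGAC, and both windows enter the counts that follow. Windows were found for 8 of the 10 genes, 12 windows in all, of which 7 held CAGAC and 6 held GGGCGG. Of all 32817 mouse promoter windows of this length, 42.2% held CAGAC and 32.7% held GGGCGG, at a median GC content of 52.4%. A match describes the letters in the window and is not a measured binding site.

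Among the ligands, *Tgfb3* was the main transcript in these muscles and *Tgfb1* the smallest. Levels are CPM, the counts of a gene per 1000000 counts of its library after TMM scaling (trimmed mean of M-values). *Tgfb3* measured 92.9 and 100.4 in mCDC muscle and 104.2 and 105.1 in vehicle muscle, the narrowest relative spread of the 3. The mCDC libraries lay just below the vehicle libraries, and the log2 fold change was -0.11 with a standard error (SE) of 0.13. *Tgfb2*, the isoform that depends most on betaglycan, measured 48.0 and 69.9 CPM with mCDCs and 56.8 and 45.3 CPM with vehicle. Its groups overlapped, since the mCDC libraries held the highest value and the second lowest, and the log2 fold change was 0.21 (SE 0.20, 95% interval -0.26 to 0.68). *Tgfb1*, the isoform most studied in fibrosis, measured 11.5 and 12.0 CPM with mCDCs and 10.8 and 14.0 CPM with vehicle. Its 2 vehicle libraries enclosed the mCDC libraries. For *Tgfb1* the log2 fold change was -0.08 (SE 0.19), with a 95% interval of -0.52 to 0.37. No ligand passed the call, and their adjusted p-values in edgeR's quasi-likelihood test were 0.940 for *Tgfb1*, 0.825 for *Tgfb2* and 0.845 for *Tgfb3*.

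Summed over the 3 ligands, the level was 152 and 182 CPM in mCDC muscle against 172 and 164 CPM in vehicle muscle, so the groups overlapped. Per kilobase of transcript, *Tgfb3* made up between 60.7% and 67.0% of ligand transcripts in the 4 libraries, *Tgfb2* between 19.1% and 28.0%, and *Tgfb1* between 10.6% and 13.9%. This order of the 3 isoforms was the same in each of the 4 libraries.

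**Figure D1:**
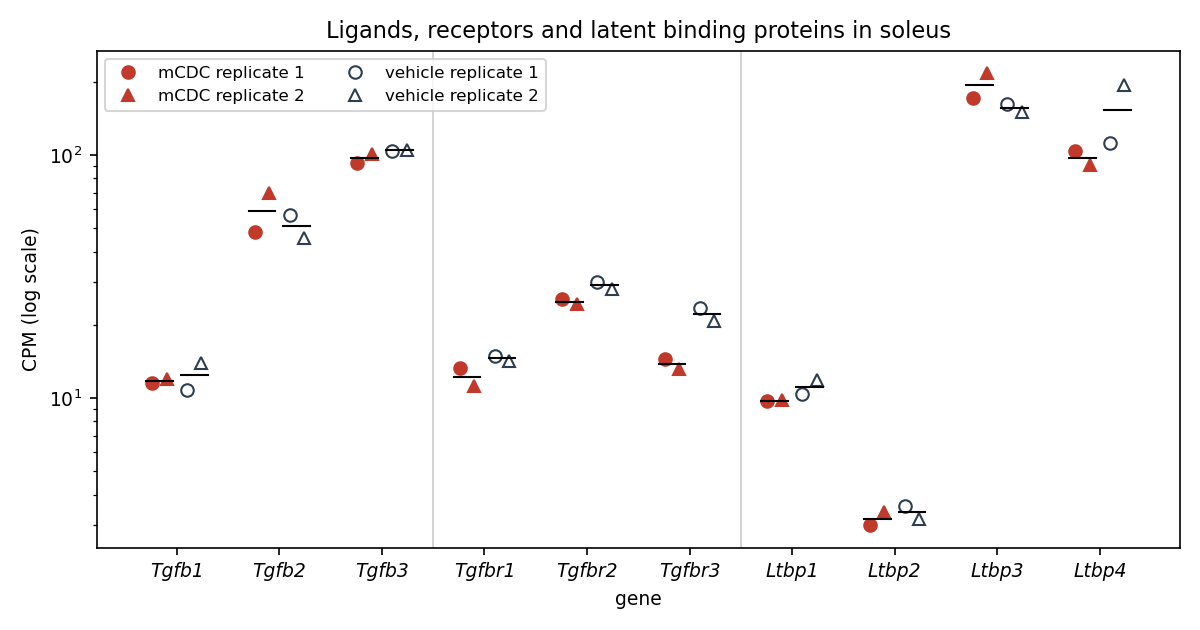
Level of each ligand, receptor and latent binding protein in every library, in CPM on a log axis, with filled symbols for mCDC, open symbols for vehicle and a bar at each group mean. Both mCDC libraries of *Tgfbr3* (14.4 and 13.2 CPM) sit below both vehicle libraries (23.5 and 20.8 CPM), whereas the *Ltbp4* vehicle libraries are 111.6 and 194.6 CPM.

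For all 3 receptors the mCDC libraries lay below the vehicle libraries without overlap, and *Tgfbr3* passed the call. *Tgfbr3* (chr5:107106567-107289629, GRCm38) measured 14.4 and 13.2 CPM in mCDC muscle and 23.5 and 20.8 CPM in vehicle muscle, from 381, 289, 617 and 572 expected counts. The group means were 13.8 ± 0.868 and 22.2 ± 1.93 CPM (SD, n = 2), a gap wider than the spread within either group. The log2 fold change of *Tgfbr3* was -0.68 (SE 0.16, 95% interval -1.06 to -0.30), with an unadjusted p of 0.003 and an adjusted p of 0.567 in edgeR's quasi-likelihood test. Leaving out each library in turn moved it between -0.77 and -0.59, and it was called each time. Removing a trend on transcript length and GC content brought it to -0.51, under the 1.5-fold limit, with an unadjusted p of 0.011 in edgeR. Of its 31-base words, 4.13% occur in another gene, mostly in *Gm43422*, an unlisted transcript on the same strand that shares 297 exonic bases.

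*Tgfbr2*, the receptor that binds ligand first, measured 25.5 and 24.4 CPM with mCDCs and 29.9 and 28.2 CPM with vehicle, a log2 fold change of -0.22 (SE 0.14, adjusted p = 0.767 in edgeR). *Tgfbr1*, the kinase that passes the signal to the SMADs, measured 13.3 and 11.2 CPM with mCDCs and 14.9 and 14.2 CPM with vehicle, a log2 fold change of -0.25 (SE 0.18, adjusted p = 0.776 in edgeR). The groups did not overlap for either kinase receptor, but both 95% intervals held 0. In CPM, *Tgfbr2* was between 1.91 and 2.18 times *Tgfbr1* in the 4 libraries with the groups overlapping. The ratio of *Tgfbr3* to *Tgfbr2* was 0.567 and 0.541 in mCDC muscle and 0.788 and 0.739 in vehicle muscle, so betaglycan was lower against the ligand-binding kinase within each mCDC library. Per kilobase, *Tgfbr3* supplied 20.8% and 21.1% of receptor transcripts with mCDCs and 27.2% and 25.8% with vehicle.

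Of the LTBPs, *Ltbp4* was called lower, *Ltbp3* was fitted higher without passing the call, and *Ltbp1* and *Ltbp2* were scarce. *Ltbp4* (chr7:27305140-27339720, GRCm38) measured 103.8 and 90.8 CPM in mCDC muscle and 111.6 and 194.6 CPM in vehicle muscle, from 2740, 1988, 2926 and 5348 expected counts. Vehicle replicate 2 stood apart, and vehicle replicate 1 lay close to mCDC replicate 1, although the groups did not overlap. The means were 97.3 ± 9.16 and 153.1 ± 58.6 CPM (SD, n = 2). It binds latent TGF-beta 1, and its log2 fold change was -0.65 (SE 0.24, 95% interval -1.21 to -0.10), with an unadjusted p of 0.026 and an adjusted p of 0.705 in edgeR's quasi-likelihood test. Without vehicle replicate 2 it was -0.20 with an unadjusted p of 0.244 in edgeR, and without mCDC replicate 2 it was -0.56 with an unadjusted p of 0.0544, and in neither case was it called, so that *Tgfbr3* was then the 1 called gene of the 10. Once length and GC content were accounted for it was -0.54, with an unadjusted p of 0.029 in edgeR, and also fell short of the 1.5-fold limit.

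*Ltbp3* (chr19:5740900-5758536, GRCm38), which carries latent ligand in bone and other connective tissue, measured 171.1 and 216.5 CPM with mCDCs and 161.7 and 150.3 CPM with vehicle. Both mCDC libraries were above both vehicle libraries. On the log2 scale the fold change was 0.31 (SE 0.15, 95% interval -0.04 to 0.67), with an unadjusted p of 0.074 and an adjusted p of 0.726 in edgeR's quasi-likelihood test. Without mCDC replicate 1 it was 0.47, with an unadjusted p of 0.035 in edgeR but under the 1.5-fold limit, and without mCDC replicate 2 it was 0.13. The ratio of *Ltbp4* to *Ltbp3* was 0.606 and 0.419 in mCDC muscle and 0.690 and 1.29 in vehicle muscle, so *Ltbp4* exceeded *Ltbp3* in vehicle replicate 2 alone.

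*Ltbp1*, which binds all 3 latent ligands, measured 9.73 and 9.78 CPM with mCDCs and 10.4 and 11.9 CPM with vehicle, a log2 fold change of -0.19 (SE 0.18, adjusted p = 0.822 in edgeR). *Ltbp2*, the member of the family that does not bind latent TGF-beta, measured 2.99 and 3.38 CPM with mCDCs and 3.59 and 3.17 CPM with vehicle, a log2 fold change of -0.09 (SE 0.25, adjusted p = 0.952 in edgeR). *Ltbp2* rested on at most 94 expected counts in a library and shares 764 exonic bases with the antisense transcript *D030025P21Rik*, and its SE was the largest of the 10. The summed LTBP level was 288 and 320 CPM in mCDC muscle and 287 and 360 CPM in vehicle muscle, and the groups overlapped.

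**Figure D2:**
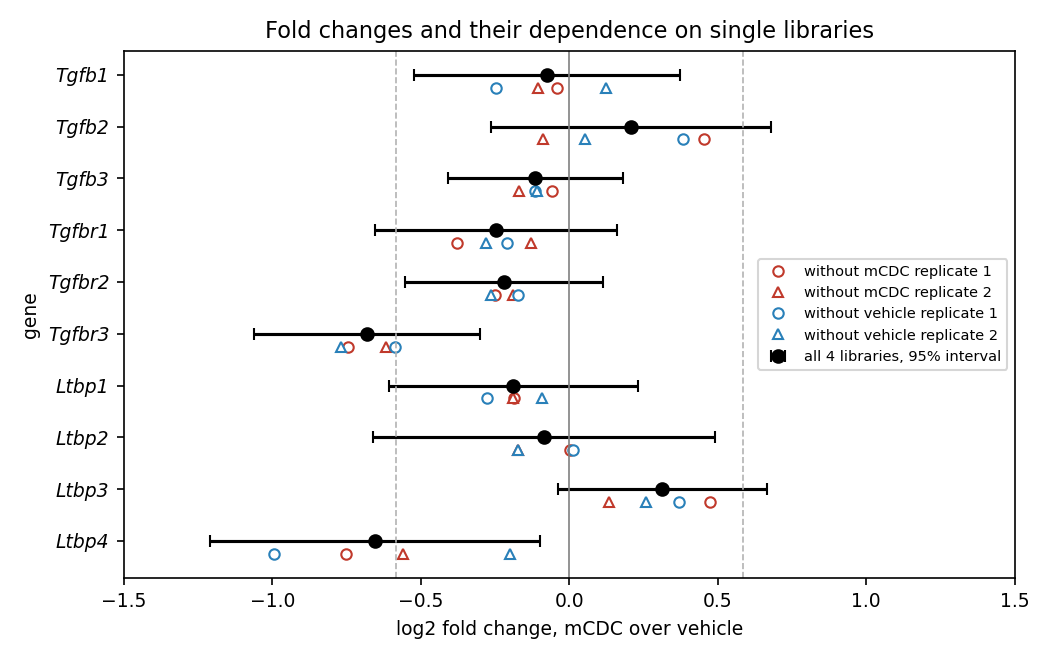
Log2 fold change of each gene, mCDC over vehicle, with its 95% interval from all 4 libraries in black and the 4 leave-one-out values below it. Dashed lines mark the 1.5-fold limits. The *Tgfbr3* interval (-1.06 to -0.30) does not reach 0 and its leave-one-out values stay at or beyond the lower limit, whereas *Ltbp4* moves to -0.20 without vehicle replicate 2.

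To compare levels between genes, CPM were divided by transcript length, using the median length of the RefSeq-matched transcripts of each gene. *Ltbp3* was highest, with a mean over the 4 libraries of 33.7 CPM per kilobase, followed by *Tgfb3* with 29.7, *Ltbp4* with 24.5, *Tgfb2* with 10.7, *Tgfb1* with 5.54, *Tgfbr1* with 4.68, *Tgfbr2* with 4.66, *Tgfbr3* with 2.96, *Ltbp1* with 1.77 and *Ltbp2* with 0.497. The libraries of *Ltbp3* overlapped those of *Tgfb3*, and those of *Tgfb3* overlapped those of *Ltbp4*, so the order of these 3 does not exceed their spread. The same was true of *Tgfb1* against *Tgfbr1* and of *Tgfbr1* against *Tgfbr2*. All other neighbours in the order were separated in the 4 libraries. The storage proteins LTBP3 and LTBP4 and the ligand TGF-beta 3 thus had transcript levels above those of each receptor in every library. With the longest transcript of each gene in place of the median, *Tgfbr1* was 2.33 and *Tgfbr2* 3.33 CPM per kilobase, which changes the order of the receptors.

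**Figure D3:**
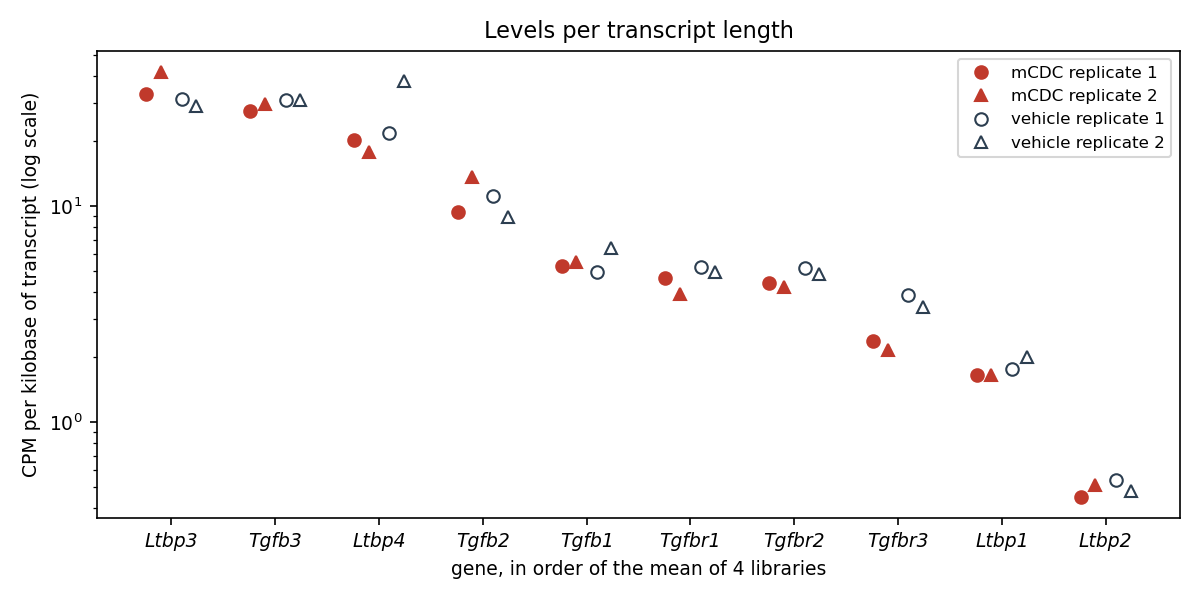
CPM per kilobase of transcript in every library on a log axis, with the genes in order of their mean over the 4 libraries. The mean falls from 33.7 for *Ltbp3* to 0.497 for *Ltbp2*, and the 3 highest genes overlap with their neighbours.

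The other genes of the pathway were described by 5 lists that hold 83 genes, of which 82 were in the table and 78 were tested. Of these 78, 3 were called higher and 6 lower, and the median log2 fold change was -0.05. Over all genes tested, 1.26% were called higher and 2.74% lower, which is the background for the counts of each list below.

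Of the 26 target genes, 2 were called higher and 4 lower, and the median log2 fold change was 0.03. The 4 lower genes encode matrix proteins and an oxidase. *Comp*, a matrix protein of tendon and cartilage, measured 11.2 and 9.82 CPM with mCDCs and 19.7 and 15.8 CPM with vehicle, a log2 fold change of -0.76 (SE 0.19, adjusted p = 0.571 in edgeR), and without vehicle replicate 1 it was -0.58, just short of the 1.5-fold limit. The fibronectin gene *Fn1* had a log2 fold change of -0.72 (SE 0.22), the collagen I chain *Col1a2* of -0.61 (SE 0.19) and the NADPH oxidase *Nox4* of -0.71 (SE 0.29), and their edgeR adjusted p-values were 0.635, 0.643 and 0.713. *Fn1* and *Col1a2* were not called without vehicle replicate 2, at -0.43 and -0.31, without mCDC replicate 2, at -0.52 and -0.54, or with the length and GC trend removed. *Nox4* was not called by DESeq2, with the replicate number as a block, with that trend removed, or when any library other than vehicle replicate 1 was left out, although its value was -0.70 both in DESeq2 and with the block. It was -0.59 with the trend removed, -0.92 without mCDC replicate 1, -0.53 without mCDC replicate 2 and -0.46 without vehicle replicate 2. *Timp1*, an inhibitor of metalloproteinases, was called higher with overlapping groups, at 4.09 and 13.1 CPM with mCDCs and 2.82 and 4.69 CPM with vehicle, with a log2 fold change of 1.17. That call was lost under both other filters on low counts and when any library other than mCDC replicate 1 was left out, although the value stayed at 1.17 under both filters. It was 0.12 without mCDC replicate 2, and leaving out vehicle replicate 1 or 2 gave 0.86 or 1.59, in that order. The 3 target genes with the highest CPM were not called. They were *Tsc22d1* at 0.08, *Col3a1* at -0.35 and *Cilp* at -0.18 on the log2 fold change scale. *Col3a1* was -0.66 and would have been called without vehicle replicate 1, and it was 0.05 without vehicle replicate 2.

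In the list of SMAD signalling and feedback, 1 of 20 genes was called higher and none lower, with a median log2 fold change of 0.02. The called gene was *Pmepa1*, which is induced by TGF-beta and limits SMAD activation. It measured 52.9 and 87.2 CPM with mCDCs and 43.2 and 40.1 CPM with vehicle, a log2 fold change of 0.75 (SE 0.22, adjusted p = 0.635 in edgeR). It was not called without mCDC replicate 2, where it was 0.35, or without vehicle replicate 2, where the fold stayed above the limit but p was 0.0590. The SMAD phosphatase gene *Ppm1a*, the ubiquitin ligase gene *Wwp1* and the deubiquitinase gene *Usp15* had the highest CPM of the list, and their log2 fold changes were 0.005, -0.40 and -0.21 without a call.

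Among the 16 tested genes of activation and latency, 1 was called lower and none higher, with a median log2 fold change of -0.04. It was the gelatinase *Mmp2*, a protease that can free latent ligand, at 23.3 and 23.9 CPM with mCDCs and 31.1 and 43.3 CPM with vehicle. The log2 fold change of *Mmp2* was -0.66 (SE 0.19, adjusted p = 0.619 in edgeR) and -0.40 without vehicle replicate 2, where it was not called. The integrin chains *Itgb1* and *Itgb5* and the transglutaminase *Tgm2* had the highest CPM here, with log2 fold changes of 0.12, -0.03 and 0.12. *Itgb8*, *Mmp9*, *Plg* and *Fbn2* had too few counts to be tested.

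Of the 6 matrix proteins that bind the ligands, 5 were fitted lower and 1 was called lower, with a median log2 fold change of -0.45. The called gene was *Fmod*, or fibromodulin, at 10.3 and 20.8 CPM with mCDCs and 36.1 and 24.7 CPM with vehicle, a log2 fold change of -0.97 (SE 0.32, adjusted p = 0.673 in edgeR). *Fmod* was not called without mCDC replicate 1 (-0.54) or without vehicle replicate 1 (-0.66). *Dcn*, or decorin, which binds and neutralizes TGF-beta, measured 113.7 and 98.9 CPM with mCDCs and 113.1 and 196.2 CPM with vehicle, so that vehicle replicate 2 was high as it was for *Ltbp4*. *Dcn*, *Bgn* and *Aspn* had log2 fold changes of -0.54, -0.50 and -0.39, none of them called. Without vehicle replicate 2, *Dcn* was -0.09 and *Bgn* -0.15, whereas without vehicle replicate 1 they were -0.88 and -0.79 and would have been called. *Aspn* was -0.09 without mCDC replicate 2, -0.08 without vehicle replicate 1 and -0.77, past the call, without mCDC replicate 1. None of the 10 tested co-receptors and receptor modulators was called, and their median log2 fold change was -0.12. Those with the highest CPM were *Fkbp1a* at 0.21, *Strap* at 0.16 and *Tgfbrap1* at -0.07.

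**Figure D4:**
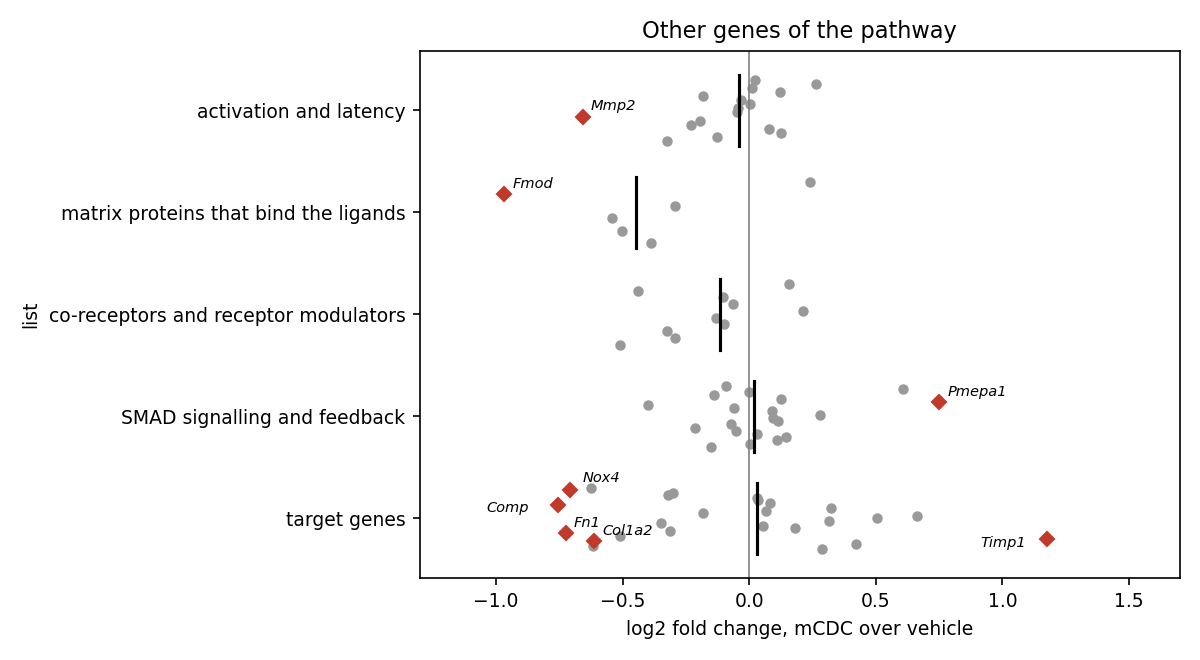
Log2 fold change, mCDC over vehicle, of the tested pathway genes that are not ligands, receptors or latent binding proteins, by list. Red diamonds with names are called genes, grey dots the others, and black bars the medians of all tested genes of a list, which run from -0.45 for the matrix proteins that bind the ligands to 0.03 for the target genes.

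The libraries also differed in the transcripts of non-muscle cells, and in bulk muscle fewer cells of a type and less RNA per cell cannot be told apart. Vehicle replicate 2 had the highest CPM for 9 of 9 fibroblast markers, 8 of 8 endothelial markers, 5 of 5 Schwann cell markers and 6 of 6 blood markers. Summed fibroblast markers were 490 and 387 CPM in mCDC muscle and 472 and 735 CPM in vehicle muscle, with 3 of 9 called lower and a median log2 fold change of -0.45. Most of that sum was *Gsn*, at 337 and 243 CPM with mCDCs and 334 and 482 CPM with vehicle, so its order of libraries is largely that of *Gsn*. Summed endothelial markers were 147 and 117 CPM with mCDCs and 120.1 and 266 CPM with vehicle, with 0 of 8 called. *Ltbp4* followed the same order of libraries as the fibroblast sum apart from mCDC replicate 1 and vehicle replicate 1, which were close in both. The part of these cells in the *Ltbp4* difference was not tested. *Tgfbr3* did not peak in vehicle replicate 2, since vehicle replicate 1 held its highest value. Of the smooth muscle and pericyte markers, 1 of 7 was called lower, *Rgs5*, and 3 of 7 were fitted above 0, with a list median of -0.085 on the log2 scale and a sum, nearly all of it *Des*, of 10782 and 12580 CPM with mCDCs and 10807 and 10379 CPM with vehicle. The part of these cells in the *Tgfbr3* difference was not tested. Summed adipocyte markers were 36.9 and 34.9 CPM with mCDCs and 62.6 and 17.1 CPM with vehicle, so the libraries highest and lowest in fat transcripts were both vehicle. Of the 6 satellite cell and regenerating fibre markers, 3 were called higher, *Pax7*, *Myod1* and *Myog*. The others were not called, with log2 fold changes of 0.03 for *Myf5*, -0.15 for *Myh3* and -0.12 for *Myh8*. The part of these cells and fibres in either difference was not tested.

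Macrophage markers, the sum of which was 54.5 and 59.2 CPM with mCDCs and 45.4 and 77.8 CPM with vehicle, had 1 of 9 tested genes called higher and 1 called lower. T cell markers were near 0, with a sum of 0.837 to 1.02 CPM per library and *Cd3e* at 0 counts in 2 of 4 libraries. Tendon markers had 2 of 5 tested genes called lower and 1 higher. Markers of slow and oxidative fibres had a sum between 130030 and 148879 CPM in the 4 libraries, with 0 of 10 called. No other muscle was measured, so these values cannot test the label of soleus. The fast glycolytic list also had 0 of 8 called. In it the mCDC libraries were close for *Tnnt3*, *Tnni2* and *Tnnc2*, where the vehicle libraries differed more. For *Tnni2* they were 2717 and 2825 CPM, against 2010 and 3507 CPM with vehicle. They stood far apart for *Myh4*, *Myh1*, *Actn3* and *Pvalb*. *Myh4*, the fastest myosin heavy chain, was 2096 CPM in mCDC replicate 1 and 47.5 CPM in mCDC replicate 2, against 162.9 and 411 CPM in vehicle muscle, and the part of fibre type in the differences above was not tested.

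**Figure D5:**
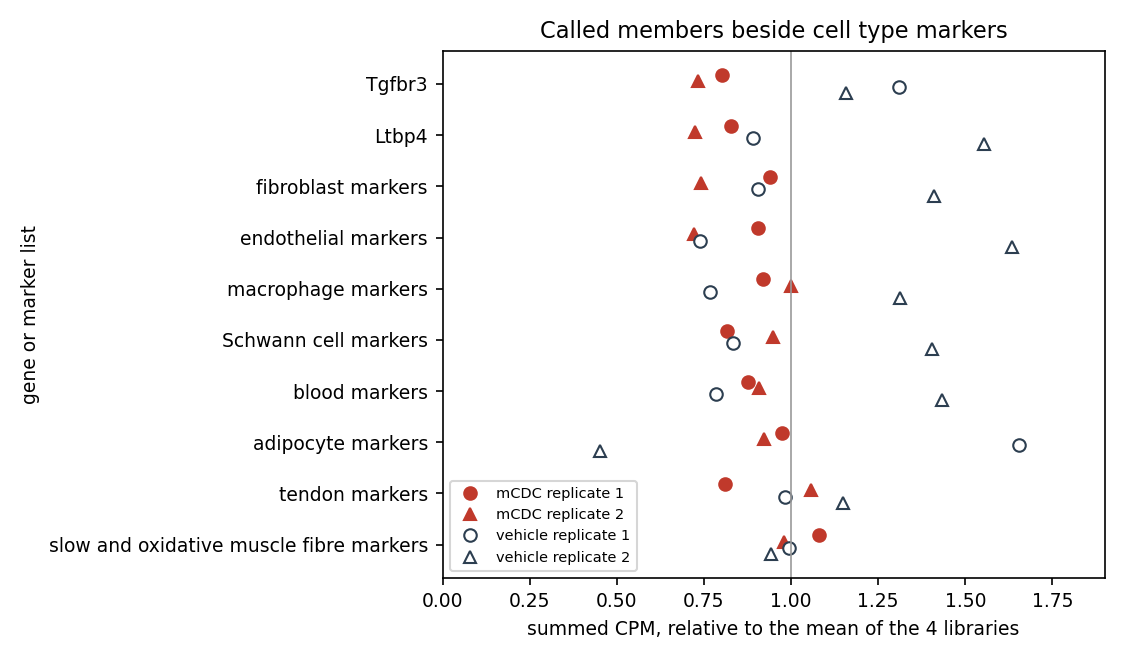
Level of *Tgfbr3* and *Ltbp4* and summed CPM of cell type marker lists in each library, relative to the mean of the 4 libraries. Vehicle replicate 2 is highest for *Ltbp4* and for the fibroblast (735 CPM), endothelial (266 CPM), macrophage, Schwann cell, blood and tendon sums, but not for *Tgfbr3*.

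The 4 libraries held between 22481391 and 27187425 expected counts and their log2 CPM correlated at a Pearson r of 0.980 to 0.987 across genes, which are not independent replicates. Exons of *Tgfb2* and *Tgfb3* overlap unlisted transcripts on the opposite strand by 124 to 257 bases. None of the 31-base words of *Tgfb3*, *Ltbp3* or *Ltbp4* occurs in another gene.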

How the data were processed

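RNA was sequenced from 4 soleus muscles as single-end reads. The library kit differs between the sources, and whether counting used strand was not given. The deposited values are RSEM expected counts per gene, which the authors did not normalize. The submitters' processing notes name Bowtie2 2.1.0, RSEM 1.2.15 and mm10. Coordinates, lengths and exon overlaps are from GENCODE M21 and RefSeq on GRCm38, the same build. Of the 24054 symbols, 22750 matched a gene by name and 932 by an older name.

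Expected counts, of which 15.7% were not whole, were rounded and tested in edgeR 4.0.16 (R 4.3.3) after filterByExpr and TMM scaling by the quasi-likelihood F-test (legacy = FALSE) without covariates. A call needed a fold change above 1.5 and an unadjusted p below 0.05, and adjusted p-values are Benjamini-Hochberg over 13652 genes. An SE is the size of the log2 fold change over the square root of F. On simulated data, with 200 of the better-counted genes changed and dispersions taken from the fitted trend, 95% of 2-fold and 100% of 4-fold changes were called. Smaller changes, such as those of the 10 genes, were not simulated, and neither was extra variation of single genes around the trend. The simulation thus gives no detection rate for the 10 genes. The genes and lists were chosen with earlier results of these data known. Named genes are the 10, the called genes and the 3 highest in CPM of each pathway list, and the 3 with the pattern nearest to *Tgfb1*. Marker genes named beside a result were chosen after their values were seen. In the list of target genes, 1 called gene enters the counts and the median but is not reported here.

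Alternatives were DESeq2 1.42.0, edgeR's exact and legacy tests, DESeq2-type size factors, no filter or at least 10 counts in every library, the replicate number as a block, offsets for a trend on length and GC, and single libraries left out in turn.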

Additional observations from a re-analysis of the deposited data

How the results depend on the processing

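Across the 8 alternatives that kept all libraries, *Tgfbr3* and *Ltbp4* stayed called lower except with the length and GC trend removed, where 0 of the 10 genes and 3 pathway genes were called lower and the median over the 10 genes was -0.081. That setting also raised the share of calls that were higher from 31.5% to 42.5% (208 against 281 lower), and the signs of *Ltbp2* (0.030), *Tgfbrap1* (0.067) and *Usp15* (0.023) turned. With at least 10 counts in every library, *Ppm1a* was -0.0015. The cause was not tested.

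Leaving out each library gave 112 to 397 genes called higher and 236 to 834 lower, 1 to 2 of the 10 genes and 3 to 14 pathway genes lower, 1 to 7 pathway genes higher, and a median over the 10 genes of -0.19 to -0.12. The lone library of a group was then assumed to vary like the other group. Signs turned within the ranges of *Tgfb1* (-0.25 to 0.12), *Tgfb2* (-0.089 to 0.45), *Ltbp2* (-0.17 to 0.011), *Itgb1* (-0.014 to 0.24), *Itgb5* (-0.084 to 0.020), *Tgfbrap1* (-0.19 to 0.073), *Ppm1a* (-0.11 to 0.13), *Usp15* (-0.41 to 0.017), *Col3a1* (-0.66 to 0.049) and *Tsc22d1* (-0.079 to 0.26).

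No source ties libraries with the same number, and their deviations from the group means correlated at -0.039 across genes, so they were not treated as pairs. With the replicate block, 172 genes were called higher and 308 lower, 2 of the 10 genes lower, 3 pathway genes higher and 5 lower (*Nox4* was no longer called), and the median over the 10 genes was -0.15. *Ltbp2*, with at most 94 expected counts, is the gene of the 10 that depth limits most.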

Other observations

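Of the 78 tested pathway genes, those whose pattern over the 4 libraries lay nearest to *Tgfb1* were *Cd109*, a co-receptor that dampens TGF-beta signalling, the transcription factor *Snai2* and the integrin chain *Itgb3*. The root mean square difference from *Tgfb1* in log2 CPM, centred on the mean of the 4 libraries, was 0.0868 for *Cd109*, 0.104 for *Snai2* and 0.119 for *Itgb3*. All 3 were scarce, at no more than 3.53 CPM in any library.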
